A study of Homo sapiens with 8 samples.

Results

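The mRNAs described here encode 10 proteins that build stress granules: G3BP1, G3BP2, CAPRIN1, UBAP2L, TIA1, TIAL1, ATXN2, ATXN2L, FMR1 and FXR1. They were chosen by gene symbol, as 10 of the 59414 genes in the table of gene counts, and all 10 were also listed in the 4 tables of RNA editing. The choice was made with earlier results of these data in view, among them the higher G3BP2 reads after loss of EDC4. The whole knockdown contrast is therefore given as a description, with no test. The libraries came from HEK293T, a transformed human line of embryonic kidney origin, in which a pair of RNA-editing enzymes had been directed to processing bodies (P-bodies). One enzyme, as in TRIBE, uses an ADAR domain to turn adenosine into inosine (A-to-I), and the other, as in STAMP, uses an APOBEC domain to turn cytidine into uridine (C-to-U). There were 4 groups of 2 libraries each: P-bodies isolated by sorting, cytosol, cells given an siRNA against EDC4 (siEDC4) and cells given a control siRNA (siNC). The EDC4 protein is a scaffold of the mRNA decapping complex. All 4 groups carried the editors, no library without them was used here, and editing that did not come from them cannot be told apart from their marks. Input RNA was 50 ng in the sorted group, 100 ng in the cytosol group and 500 ng in both siRNA groups, and within the sort the input and the fraction cannot be told apart.

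Stress granules are cytoplasmic condensates of stalled translation initiation complexes, which form when phosphorylation of the initiation factor eIF2α or another block leaves mRNA without running ribosomes. G3BP1 and G3BP2 are paired RNA-binding proteins that nucleate them, with CAPRIN1 and UBAP2L as direct partners. P-bodies are a neighbouring but different kind of condensate, built by the decapping and deadenylation machinery, and they can dock on stress granules. The proteins of the one kind are thus well known, while the question put to these data is where their mRNAs were found.

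The mRNAs of these genes differ in codon usage, and the coding sequences are shown because the sort values below ran along with this feature across all genes. Each line gives the 30 codons (90 bases, 5′ to 3′) at the middle of the coding sequence of 1 annotated transcript (GENCODE v29, hg38), with G or C at the third position of a codon in capitals.
FXR1: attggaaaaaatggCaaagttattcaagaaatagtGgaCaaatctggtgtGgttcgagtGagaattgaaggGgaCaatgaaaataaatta
FMR1: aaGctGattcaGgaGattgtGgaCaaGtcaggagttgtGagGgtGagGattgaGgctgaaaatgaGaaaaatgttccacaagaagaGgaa
G3BP1: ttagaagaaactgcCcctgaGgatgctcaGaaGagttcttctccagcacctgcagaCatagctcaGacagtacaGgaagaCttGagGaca
TIAL1: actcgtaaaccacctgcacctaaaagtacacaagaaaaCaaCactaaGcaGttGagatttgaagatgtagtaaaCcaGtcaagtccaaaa
UBAP2L: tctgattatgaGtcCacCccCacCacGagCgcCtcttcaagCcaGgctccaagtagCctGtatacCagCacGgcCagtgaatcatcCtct
ATXN2L: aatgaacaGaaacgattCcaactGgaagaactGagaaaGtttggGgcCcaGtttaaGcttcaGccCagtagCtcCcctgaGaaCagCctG
FXR1 carried 7 such codons of 30 in this window, FMR1 14, G3BP1 10, TIAL1 7, UBAP2L 17 and ATXN2L 17. Over the whole coding sequence, the share of codons ending in G or C was lowest in G3BP2 (29.2%) and FXR1 (31.0%). TIAL1 (33.5%), TIA1 (33.9%), FMR1 (34.6%), G3BP1 (40.7%) and CAPRIN1 (44.1%) followed. It was highest in ATXN2 (48.0%), UBAP2L (52.1%) and ATXN2L (61.1%). The median of the 13364 protein-coding genes tested in the sort was 59.2%, so 9 of the 10 genes lay below it and ATXN2L just above.

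Gene identifiers and positions came with the deposited counts (hg38). The paired paralogs lie on separate chromosomes: G3BP1 (ENSG00000145907.16) at chr5:151771045-151812911 on the plus strand and G3BP2 (ENSG00000138757.15) at chr4:75641849-75724589 on the minus strand. FXR1 (ENSG00000114416.18) is at chr3:180868141-180982753, plus strand, and FMR1 (ENSG00000102081.15) at chrX:147911919-147951125, plus strand. ATXN2L (ENSG00000168488.18) is at chr16:28823035-28837237, plus strand, and shares 8.05% of its exonic bases with AC145285.6 on the opposite strand. TIA1 (ENSG00000116001.17), at chr2:70209444-70248660 on the minus strand, shares 3.19% of its exonic bases with C2orf42 on the same strand. Whether counting used strand is not given in the sources used here, so reads in those shared stretches are uncertain. The other 8 genes shared at most 1.69% of their exonic bases with any other gene.

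Each sort library held between 21186963 and 23716926 gene counts, and each knockdown library between 5697417 and 6294767 reads of listed genes. All 8 genes taken as typical of HEK293T were above 1 CPM (counts scaled to a common library total) in all 4 sort libraries, 5 of 6 blood markers were below it in all 4, and CD3E and HBB had no count. Of 6 fibroblast markers, 3 were above 1 CPM in all 4 sort libraries and 2 were below it in all 4. Together the fibroblast markers summed to 16.8 to 21.0 CPM in sorted P-bodies and 29.2 to 32.0 in cytosol. The sorted P-body libraries differed from each other more than the cytosol libraries did (chi-square per degree of freedom of their gene counts 22.5 against 3.00). The labels give each library a batch number, and nothing in them says that libraries came from separate cultures, so p-values here measure only the spread between these libraries, which may be technical.

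In the sort, the mRNAs of stress granule scaffolds split. FXR1, G3BP1, G3BP2, FMR1 and CAPRIN1 mRNA was more abundant in sorted P-bodies than in cytosol, UBAP2L, ATXN2 and ATXN2L mRNA was less abundant, and TIA1 and TIAL1 did not pass the test. That makes 5 higher, 3 lower and 2 that did not pass, where over all 18745 genes tested 28.8% were higher and 29% lower (edgeR's quasi-likelihood test, Benjamini-Hochberg adjusted p under 0.05). The median log2 fold change of the 10 was 0.32, beside -0.03 over all genes tested. Abundance is given in CPM after TMM scaling, a share of each library, so these bulk libraries cannot tell fewer particles of a kind from less RNA in each.

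G3BP1, the RNA-binding protein that nucleates stress granules, had 715 and 792 CPM in the sorted libraries, against 335 and 344 CPM in the cytosol libraries. Both sorted libraries were above both cytosol libraries, by 2.28-fold (log2 fold change 1.19 ± 0.11 SE, n = 2 libraries per group, edgeR adjusted p = 2.2e-05). Within batch 1 and batch 2 the log2 difference was 1.09 and 1.20. Its paralog G3BP2 had 306 and 317 CPM in sorted P-bodies against 180 and 187 CPM in cytosol, a log2 fold change of 0.80 ± 0.11 (edgeR adjusted p = 0.00016), with no overlap. CAPRIN1, the G3BP-binding partner that promotes condensation, had 650 and 701 CPM against 512 and 535 CPM. The groups did not overlap, and the rise was small (log2 fold change 0.40 ± 0.11, edgeR adjusted p = 0.011). It no longer passed with library size as the only scaling (0.20, adjusted p = 0.12), with the trend along exonic length removed (0.09, adjusted p = 0.53), or without cytosol library 1 (0.36, adjusted p = 0.25) or cytosol library 2 (0.42, adjusted p = 0.17).

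UBAP2L, the other direct G3BP partner of the set, went the other way, with 244 and 245 CPM after sorting, against 395 and 419 CPM in cytosol. Its log2 fold change was -0.70 ± 0.11 (edgeR adjusted p = 0.00038), and the sorted libraries were below both cytosol libraries. USP10, a deubiquitinase that binds G3BP and opposes granule assembly, had 219 and 244 CPM against 189 and 200 CPM, which did not pass (log2 fold change 0.28, edgeR adjusted p = 0.053). It passed narrowly with DESeq2 (0.32, adjusted p = 0.048), and without sorted library 1 (0.35) or library 2 (0.18).

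The fragile X family divided by gene. FXR1 had the largest log2 fold change of the 10, with 331 and 414 CPM in sorted P-bodies against 133 and 134 CPM in cytosol (1.52 ± 0.13, edgeR adjusted p = 1.3e-05). A share of 93.1% of all genes tested had a lower fold change. FMR1, which encodes the translational repressor lost in fragile X syndrome, had 198 and 257 CPM against 139 and 139 CPM. Its log2 fold change was 0.75 ± 0.14 (edgeR adjusted p = 0.0011), and sorted library 2 stood higher than library 1 for both genes, with within-batch log2 differences of 0.51 and 0.89 for FMR1 and 1.32 and 1.63 for FXR1. FXR2, the family's remaining member and not among the 10, was lower in sorted P-bodies, at 48.2 and 44.8 CPM against 66.8 and 70.8 CPM (log2 fold change -0.53, edgeR adjusted p = 0.0015).

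Both ataxin-2 mRNAs were depleted. ATXN2, which encodes a poly(A)-binding protein partner, had 104 and 110 CPM in sorted P-bodies against 180 and 185 CPM in cytosol (log2 fold change -0.74 ± 0.11, edgeR adjusted p = 0.00025). ATXN2L, its paralog, had 114 and 96.4 CPM against 251 and 257 CPM (-1.23 ± 0.12, edgeR adjusted p = 2.2e-05). In both genes every sorted library lay below every cytosol library, and only 6.02% of genes tested had a lower fold change than ATXN2L.

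The mRNAs of the U-rich-element binders TIA1 and TIAL1, translational silencers with prion-like domains, were nearest to even. TIA1 had 77.6 and 90.0 CPM in sorted P-bodies against 70.4 and 75.5 CPM in cytosol (log2 fold change 0.24 ± 0.11, edgeR adjusted p = 0.097). TIAL1 had 121 and 132 CPM against 131 and 142 CPM, and its groups overlapped (-0.08 ± 0.11, adjusted p = 0.58). These results moved with single libraries and with the scaling. TIA1 passed as higher without sorted library 1 (0.33), and TIAL1 passed as lower without sorted library 2 (-0.16, adjusted p = 0.030) with library size as the only scaling (-0.28, adjusted p = 0.037) and with the length trend removed (-0.29, adjusted p = 0.044). Leaving out a sorted library leaves 1 in that group, which is then assumed to vary like the tighter cytosol pair, so these passes, and those of USP10, say little. Library-size scaling moved the median of all genes from -0.03 to -0.23. Across all alternatives other than the codon trend below, the 7 remaining genes and CAPRIN1 kept their direction. With the length trend removed G3BP1 stood at 0.63, G3BP2 at 0.35 (edgeR adjusted p = 0.019), FMR1 at 0.44 and ATXN2 at -1.23, all still passing.

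**Figure D1:**
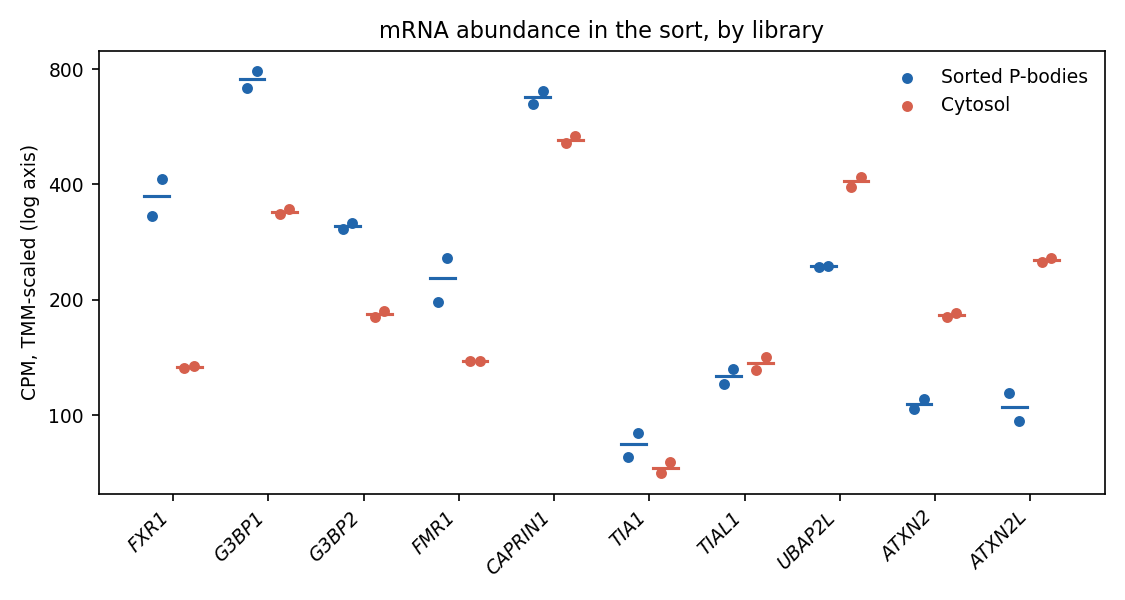
Abundance of the 10 mRNAs in CPM after TMM scaling (log axis) in each sorted P-body library (blue) and cytosol library (red), with the mean of each pair as a bar, ordered by log2 fold change. FXR1 at the left has 331 and 414 CPM against 133 and 134, and ATXN2L at the right has 114 and 96.4 CPM against 251 and 257.

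Levels per kilobase of merged annotated exon also changed order between the fractions. In cytosol CAPRIN1 was highest at 57.6 CPM per kb ± 1.80 (SD, n = 2), ahead of UBAP2L (54.3 ± 2.31) and ATXN2L (39.0 ± 0.622), and then came TIAL1 (18.5), G3BP1 (16.96), FMR1 (15.5), G3BP2 (13.3) and FXR1 (11.2). ATXN2 and TIA1, both at 11.0 CPM per kb, overlapped each other, and the range of TIA1 (10.7 to 11.4) also took in that of FXR1 (11.2 to 11.3). Every neighbouring pair from CAPRIN1 down to FXR1 was apart. In sorted P-bodies CAPRIN1 was again first at 74.3 CPM per kb ± 3.97, and G3BP1 (37.6 ± 2.69) had moved to the second place. UBAP2L (32.6), FXR1 (31.4), FMR1 (25.4) and G3BP2 (22.6) followed, and each of these neighbours overlapped the next. ATXN2 was last at 6.46 CPM per kb ± 0.267, apart from TIA1 at 12.7. The exon length is that of all annotated exons merged, which can exceed the length of the transcripts these cells make. It was 16540 bases in ATXN2 and 7355 in TIAL1, where the annotated transcripts used above had 4702 and 1401 bases. The order of genes given here therefore holds for merged exons only and can differ by transcript length.

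The 10 fold changes ran partly along with GC3, the share of codons ending in G or C, though TIA1 and TIAL1 had low GC3 and near-even abundance. Across the 13364 protein-coding genes, the log2 fold change in the sort had a Pearson r of -0.52 and a Spearman rho of -0.53 with GC3. It also had a Spearman rho of 0.42 with transcript length, 0.37 with coding length and 0.27 with the length of the 3′ untranslated region. All these genes come from the same 4 libraries and are not independent replicates. Among the 3341 genes with the lowest share (up to 44.2%), the median log2 fold change was 0.80, with 71.0% of genes higher and 8.62% lower in sorted P-bodies. Among the 3341 genes with the highest share (from 73.7%) the median was -0.42, with 8.92% higher and 49.5% lower. The 5 genes that rose all lay in the lowest of these bands, as did TIA1 and TIAL1, and the 3 that fell lay above it. In the annotated transcripts used, the 3′ untranslated region had 1789 (CAPRIN1) to 8694 bases (G3BP1) in the 5 that rose. It had 520 (ATXN2L) to 598 bases (ATXN2) in the 3 that fell, 3275 in TIA1 and 228 in TIAL1. Which of these features went with the fold change apart from the others was not tested.

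Within that background the genes took a different order. After the trend with GC3 was removed in the fit, an alternative added after the data were seen, 2 of the 10 remained higher and 6 were lower. G3BP1 (log2 fold change 0.59, edgeR adjusted p = 0.0030) and FXR1 (0.43, adjusted p = 0.031) stayed higher. G3BP2 turned to -0.37 (adjusted p = 0.014) and TIA1 to -0.72 (adjusted p = 0.0016), while CAPRIN1 (-0.02, adjusted p = 0.86) and FMR1 (-0.17, adjusted p = 0.345) no longer passed. UBAP2L, ATXN2, ATXN2L and TIAL1 were lower, between -0.79 (UBAP2L) and -1.05 (ATXN2L and TIAL1). Whether the trend belongs to the mRNAs or to library preparation from a smaller input was not tested.

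**Figure D2:**
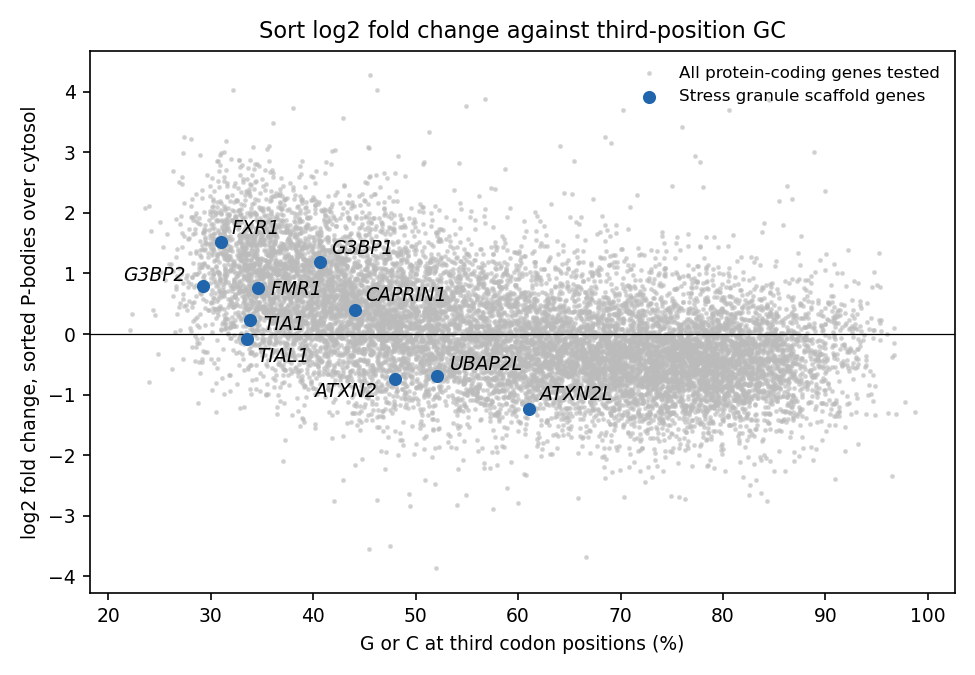
Log2 fold change in abundance, sorted P-bodies over cytosol, against the percentage of codons ending in G or C, for all 13364 protein-coding genes tested (grey) and the 10 scaffold genes (blue, named). FXR1, G3BP1, G3BP2, FMR1 and CAPRIN1 lie above 0 at 29.2% to 44.1%, TIA1 and TIAL1 lie near 0 at about the same percentages, and UBAP2L, ATXN2 and ATXN2L lie below 0 at 48.0% to 61.1%.

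The proteins that work with these scaffolds were covered by lists chosen with earlier results known. Of 35 other stress granule RNA-binding proteins and assembly partners, 12 mRNAs were higher in sorted P-bodies, 15 lower and 8 did not pass (all genes tested 28.8% higher and 29% lower, the background for each list here). NUFIP2, a G3BP-associated RNA-binding protein, had a log2 fold change of 2.04 and LARP4, which binds poly(A), 1.87, while YBX1, an abundant mRNA-coating protein, had -1.59 and PRRC2A, an RNA-binding granule protein, -1.16. Of 21 subunits of the initiation factors eIF3 and eIF4, whose complexes stall in stress granules, 6 were higher and 10 lower. The cap-binding protein gene EIF4E (1.11) and EIF3J (1.03) had the largest rises and EIF3G (-1.37) and EIF3K (-1.19) the largest falls. With the GC3 trend removed LARP4 stood at 0.84, EIF4E at 0.38 and EIF3J at 0.40, all still passing.

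Of 18 genes of eIF2 and its stress signalling, which triggers granule assembly, 8 were higher and 7 lower. EIF2S1, which encodes eIF2α, had a log2 fold change of 0.97, and PPP1R15B, which encodes a subunit of the phosphatase acting on eIF2α, had 0.73. EIF2B1, a subunit of the eIF2 exchange factor (-0.87), and ATF4, the transcription factor translated under stress (-0.76), were lower. With library size as the only scaling, or without either cytosol library, 5 of these 18 were higher, and with the GC3 trend removed 4 were, EIF2S1 no longer among them (0.18, edgeR adjusted p = 0.14). Of the P-body core, 12 of 18 were higher and 2 lower: the exonuclease gene XRN1 (2.21) and the decapping enzyme gene DCP2 (1.86) had the largest rises, and PATL1 (-0.65) and LSM14B (-0.41) fell. LSM14B did not pass without cytosol library 1 (-0.39, edgeR adjusted p = 0.095) or with the GC3 trend removed (-0.12, adjusted p = 0.36). The list medians were -0.24 for assembly partners, -0.29 for initiation factors, 0.22 for eIF2 signalling and 0.56 for the P-body core.

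Editing was a second measure in the same sort libraries, and here the set did not split. Whether its difference between the fractions reflects contact with P-bodies was not tested. The editing score is the percentage of a gene's reads that carried an edit, and for both editors all 10 mRNAs scored higher in sorted P-bodies than in cytosol, with no overlap between the groups. All 10 also passed edgeR's quasi-likelihood test on edited and unedited reads for both editors, as most genes did. By that test the score was higher for 73.4% of the 11303 genes tested for A-to-I (1.04% lower). For C-to-U it was higher for 68.1% of the 10613 tested (0.283% lower). The share of all genes without overlap was not counted, so lack of overlap by itself is not read as a result. The count of 10 that passed the test is read against the shares of all genes that passed it. The median score per library was 6.82% and 6.97% after sorting against 2.74% and 2.63% in cytosol for A-to-I, and 2.21% and 2.50% against 0.546% and 0.522% for C-to-U.

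When each library was centred on its own median score, 8 of the 10 were still higher for A-to-I, where 16.5% of all genes were higher and 13.1% lower. The same count, 8 of 10, was higher for C-to-U, where 13.9% of all genes were higher and 3.92% lower. The genes that did not pass after centring were CAPRIN1 and ATXN2L for A-to-I and G3BP1 and ATXN2L for C-to-U. The median log2 odds ratio of the 10 before centring was 1.98 for A-to-I (all genes 1.46) and 3.82 for C-to-U (all genes 2.33).

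For G3BP1 the A-to-I scores were 14.3% and 15.4% after sorting, against 4.58% and 3.79% in cytosol. That is a log2 odds ratio of 2.00 ± 0.12 SE before centring and 0.57 after it (edgeR adjusted p = 0.00025). Its C-to-U scores were 12.5% and 13.4% against 2.63% and 1.81% (log2 odds ratio 2.72 ± 0.27, edgeR adjusted p = 6.6e-06), which did not pass after centring (0.55, adjusted p = 0.096). G3BP1 thus carried among the highest scores of the set in both fractions.

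G3BP2 had A-to-I scores of 16.5% and 15.7% against 6.02% and 4.30% (log2 odds ratio 1.82 ± 0.15). Its C-to-U scores were 8.16% and 9.01% against 0.913% and 0.168%, a log2 odds ratio of 4.14 ± 0.44 (edgeR adjusted p = 9.4e-06). The cytosol libraries differ here: library 2 had 6 edited of 3577 reads and library 1 had 31 of 3394. The odds ratio was 5.77 without cytosol library 1 and 3.34 without library 2, with no change in the call.

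For CAPRIN1, the partner of both G3BPs, the A-to-I scores were 15.7% and 16.2% in sorted P-bodies against 6.25% and 5.94% in cytosol, and its cytosol mean, 6.09% ± 0.220 (SD, n = 2), was the highest of the 10 though it overlapped that of G3BP2. The log2 odds ratio of 1.55 ± 0.11 was close to the median of all genes (after centring 0.12, edgeR adjusted p = 0.34). Its C-to-U scores were 8.04% and 9.35% against 0.627% and 0.451%, with a log2 odds ratio of 4.14 ± 0.30 and 1.97 after centring (edgeR adjusted p = 0.00043).

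UBAP2L, ATXN2 and ATXN2L, whose abundance fell in the sort, also scored higher there. UBAP2L had A-to-I scores of 8.48% and 8.91% against 2.49% and 2.24% (log2 odds ratio 1.97 ± 0.13). Its C-to-U scores of 1.66% and 2.06% against 0.092% and 0.100% gave a C-to-U log2 odds ratio (4.26 ± 0.40, edgeR adjusted p = 5.0e-06, from 15 edited of 15559 cytosol reads) within its SE of those of TIA1, G3BP2 and CAPRIN1. ATXN2 had A-to-I scores of 8.14% and 8.13% against 2.40% and 2.37% (1.86 ± 0.17) and C-to-U scores of 3.81% and 2.56% against 0.266% and 0.182% (3.86 ± 0.41). These 3 mRNAs had the lowest C-to-U scores of the 10 in sorted P-bodies, and each stood apart from its neighbours there.

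ATXN2L was least edited by the C-to-U enzyme. It scored 0.393% and 0.734% in sorted P-bodies against 0.101% and 0.020% in cytosol, on 16 edited of 3010 reads and 6 of 10042. The log2 odds ratio of 3.13 ± 0.78 passed (edgeR adjusted p = 0.0036), but not without sorted library 2 (2.69, adjusted p = 0.0997). Without cytosol library 1 it was 4.60 and without library 2 it was 2.40. Its A-to-I scores were 3.00% and 3.95% against 0.663% and 1.20% (1.91 ± 0.27).

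TIA1, which was not called in abundance, had the largest A-to-I odds ratio of the set. It scored 5.52% and 6.06% in sorted P-bodies, on 134 edited of 2320 reads, and 0.069% and 0.260% in cytosol, on 1 of 1442 and 4 of 1537 reads. The ratio of the pooled shares was 34.4 (exact 95% interval 14.4 to 108, counting error only), and the log2 odds ratio was 5.12 ± 0.41 (edgeR adjusted p = 1.4e-08). A share of 98.9% of all genes tested had a lower value. It was 4.51 without cytosol library 1 and 6.28 without library 2, and within batches 6.40 and 4.63.

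TIAL1 scored 2.60% and 3.69% against 0.847% and 0.391% for A-to-I (2.38 ± 0.32, with 3.02 without cytosol library 1 and 1.91 without library 2). For C-to-U, TIA1 scored 10.9% and 9.72% against 0.832% and 0.392% (log2 odds ratio 4.22 ± 0.36, and 4.84 without cytosol library 1) and TIAL1 8.98% and 9.99% against 0.657% and 0.855% (3.77 ± 0.29). Both paralogs thus had higher C-to-U than A-to-I scores in every sorted library.

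FMR1 had the highest mean C-to-U score of the set in sorted P-bodies, and FXR1 was the third for both editors. FMR1 had A-to-I scores of 11.4% and 11.98% against 3.04% and 3.40% (log2 odds ratio 1.99 ± 0.15) and C-to-U scores of 13.3% and 14.4% against 2.40% and 2.01% (2.83 ± 0.25). FXR1 had A-to-I scores of 14.8% and 15.6% against 4.13% and 4.22% (2.04 ± 0.14) and C-to-U scores of 10.4% and 11.5% against 1.45% and 1.06% (3.27 ± 0.28). FXR2 had a log2 odds ratio of 1.253 for A-to-I, which passed (edgeR adjusted p = 0.00032, after centring -0.17). Its C-to-U value of 1.65 ± 0.93 did not pass (edgeR adjusted p = 0.13) and rests on 6 edited reads after sorting and 4 in cytosol.

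**Figure D3:**
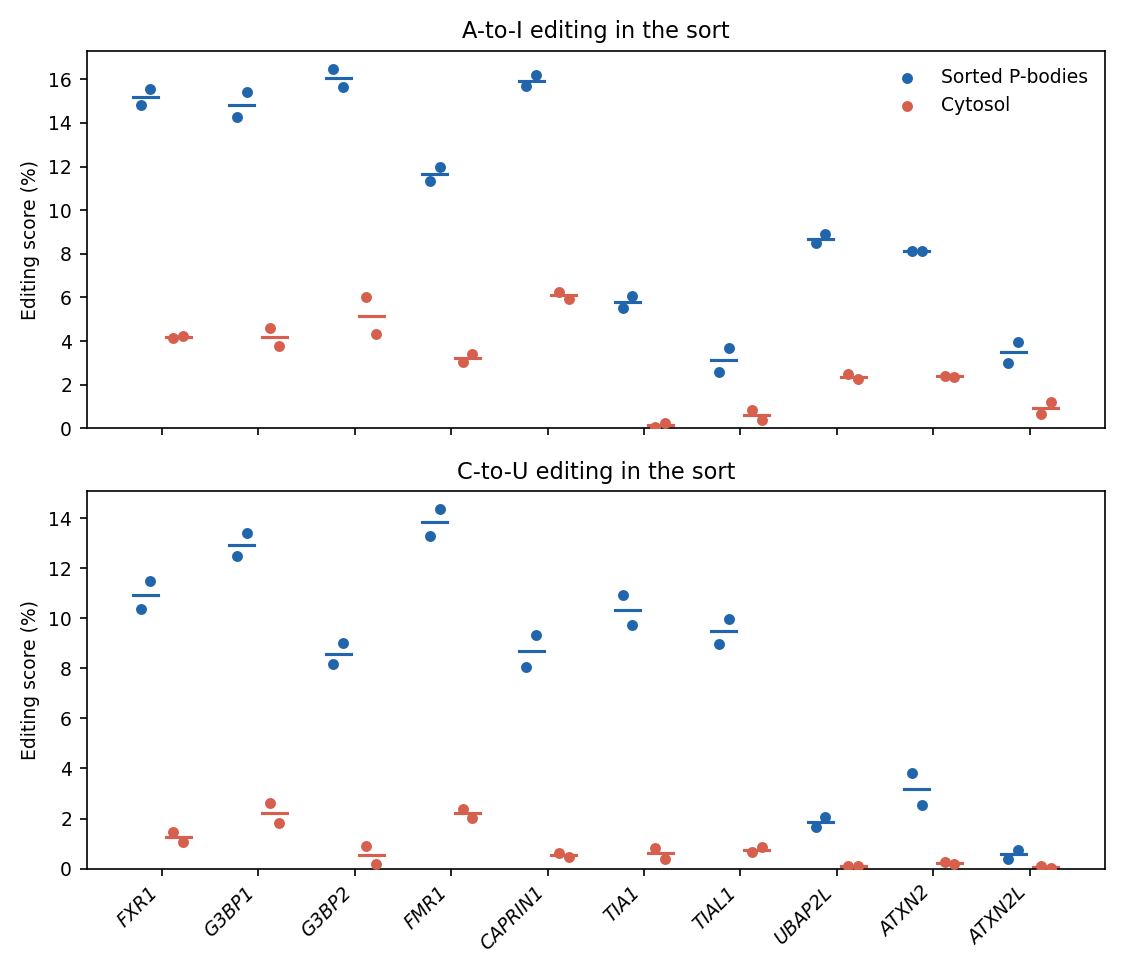
Editing score (percentage of a gene's reads with an edit) of the 10 mRNAs in each sorted P-body library (blue) and cytosol library (red), with the mean of each pair as a bar, for A-to-I (upper panel) and C-to-U (lower panel). In both panels every sorted library lies above every cytosol library of the same gene. UBAP2L, ATXN2 and ATXN2L are lowest in the C-to-U panel.

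The editors ranked the mRNAs differently in sorted P-bodies. By A-to-I, G3BP2 (16.1% ± 0.585, SD, n = 2) and CAPRIN1 (15.9% ± 0.352) overlapped at the top, followed by FXR1 (15.2%) and G3BP1 (14.8%), which also overlapped, and TIAL1 was last at 3.14% ± 0.772, overlapping ATXN2L at 3.48%. By C-to-U, FMR1 (13.8% ± 0.756) and G3BP1 (12.9% ± 0.657) overlapped at the top, and FXR1, TIA1, TIAL1, CAPRIN1 and G3BP2 formed a run from 10.9% to 8.58% in which each overlapped the next. ATXN2 (3.18%), UBAP2L (1.86%) and ATXN2L (0.563%) followed, each apart. A score depends on how many bases of a transcript each enzyme can edit, so scores of different genes do not rank their contact with P-bodies.

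The listed partner genes were edited as follows. For A-to-I, 33 of 35 assembly partners, 18 of 19 initiation factors, 15 of 18 eIF2 signalling genes and 17 of 18 P-body core genes tested scored higher in sorted P-bodies. After centring 11, 7, 3 and 6 were higher and 9, 6, 3 and 1 lower. For C-to-U, 30 of 34, 13 of 15, 11 of 17 and 17 of 18 scored higher, and after centring 19, 10, 5 and 4 were higher and 2, 0, 0 and 0 lower. Their median log2 odds ratios for A-to-I were 1.43, 1.66, 1.44 and 1.66 in the same order, beside 1.98 for the 10 scaffold genes. For C-to-U they were 3.68, 4.003, 3.00 and 2.59, beside 3.82. Only genes edited in at least 2 libraries were tested, so a gene edited in the sorted libraries alone could enter. ATF4 did so for C-to-U, with 25 edited of 6911 sorted reads and 0 of 14173 cytosol reads. EIF3G, with 1 edited read, and EIF3K, with 0, were not tested for C-to-U. These counts and medians, and the shares of all genes, therefore depend in part on that filter.

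The knockdown was checked first on its target. EDC4 had 40.3 and 32.7 CPM of reads in the siEDC4 libraries against 110 and 106 in the siNC libraries, a change of -66.2%. The siNC libraries differed in their reads by about sampling noise (chi-square per degree of freedom 1.02 in both tables, p = 0.062 and 0.047), so they were summed and counted as 1 sample. Between these libraries the edited reads varied beyond sampling noise (1.30 and 1.31 per degree of freedom), so intervals on the pooled siNC editing scores are too narrow. The reads come from the editing tables, which list fewer genes than the count table.

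G3BP2 was the 1 mRNA of the set that moved by more than 1.5-fold after loss of EDC4, and it was chosen in part for this. It had 274 and 266 CPM in the siEDC4 libraries and 173 and 177 in the siNC libraries. Both knockdown libraries were above both control libraries and close to each other, at 1.54-fold the pooled control, just past the 1.5-fold line (log2 ratio 0.62, and 0.66 and 0.58 within the batches). Of 10362 genes, 0.618% were higher by more than 1.5-fold with both siEDC4 libraries on that side and 0.116% lower, and 0.415% had a higher log2 ratio than G3BP2.

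Its paralog did not follow. G3BP1 had 344 and 386 CPM after siEDC4 against 409 and 411 after siNC, a log2 ratio of -0.17, with both knockdown libraries below the controls. FMR1 had 205 and 183 against 229 and 244 CPM (log2 ratio -0.28, the lowest of the set), also without overlap, and 3.07% of genes had a lower value. TIAL1 (log2 ratio -0.15), CAPRIN1 (-0.09) and ATXN2L (-0.09) lay slightly below the controls, with 14.7%, 26.2% and 28.2% of genes lower still. UBAP2L (0.00), FXR1 (-0.03), TIA1 (-0.04) and ATXN2 (-0.12) overlapped the controls. The share of all genes whose groups lay apart was not counted, so lack of overlap by itself is not read as a result. The median log2 ratio of the 10 was -0.09, beside -0.004 over all genes, whose 5th to 95th percentile ran from -0.25 to 0.31. The medians of the other lists lay between -0.04 and 0.03, and USP10 had a log2 ratio of -0.09.

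**Figure D4:**
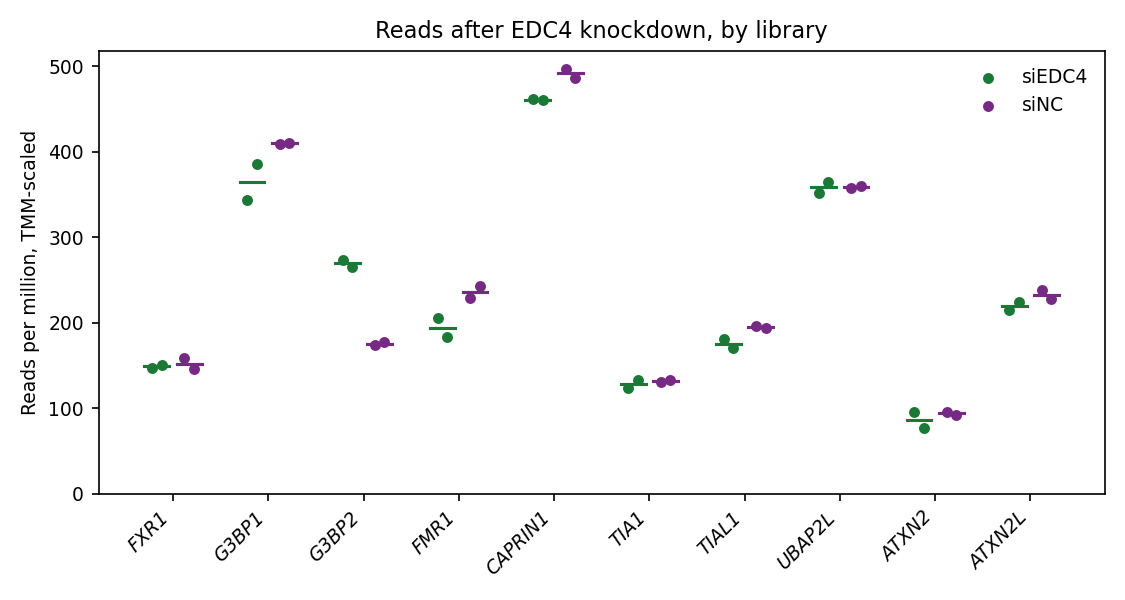
Reads in CPM after TMM scaling of the 10 mRNAs in each siEDC4 library (green) and siNC library (purple), with the mean of each pair as a bar. G3BP2 stands at 274 and 266 after siEDC4 and 173 and 177 after siNC, while FMR1 and G3BP1 lie slightly lower after siEDC4.

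In the group values, G3BP2 editing moved less than its reads did. Its A-to-I scores were 2.64% and 2.38% after siEDC4 and 2.22% and 2.36% after siNC, and its C-to-U scores were 3.90% and 2.52% against 2.33% and 2.85%. The A-to-I groups were separated by a narrow gap and the C-to-U groups overlapped. The log2 ratios were 0.14 and 0.31, and the A-to-I value was -0.18 once each library was centred on its median score. The C-to-U value depended on the library, at 0.60 without siEDC4 library 2 and -0.04 without siEDC4 library 1. Library medians were 1.22% and 1.29% after siEDC4 against 1.02% and 0.993% after siNC for A-to-I, and 1.91% and 1.64% against 1.58% and 1.56% for C-to-U.

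For A-to-I, TIA1 and FMR1 were higher by more than 1.5-fold after siEDC4 with both libraries on that side, and none of the 10 was lower, where 28.8% of 6820 genes were higher and 7.7% lower. TIA1 scored 1.86% and 1.06% after siEDC4 against 0.493% and 1.04% after siNC (log2 ratio 0.94), on 14 and 8 edited reads against 4 and 8. It fell short of 1.5-fold without siEDC4 library 1 or without siNC library 1 (0.48 in both). FMR1 scored 1.12% and 2.30% against 0.910% and 0.930% (0.90), with siEDC4 library 2 well above the other 3 libraries, and it no longer passed 1.5-fold after centring or without that library (0.29). Edited reads are few, and for TIA1 and FMR1 the exact 95% intervals of every siEDC4 library overlapped those of both siNC libraries. For FMR1 in siEDC4 library 2 (1.48% to 3.41%) the overlap with siNC library 1 (0.485% to 1.55%) was narrow. In UBAP2L the control libraries themselves lay apart, at 0.225% (interval 0.073% to 0.523%) and 1.31% (0.863% to 1.90%). Its siEDC4 libraries scored 0.654% and 1.01%, between them. The log2 ratio of UBAP2L was thus 0.16 with both siNC libraries, 1.89 without siNC library 2 and -0.65 without siNC library 1.

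For C-to-U, CAPRIN1 and ATXN2 were higher by more than 1.5-fold and none was lower, where 20.5% of 7832 genes were higher and 8.47% lower. CAPRIN1 scored 2.74% and 3.72% after siEDC4 against 1.48% and 1.72% after siNC. Both knockdown libraries were above both controls (log2 ratio 1.02, 2.03-fold), and this rests on 77 and 98 edited reads against 46 and 48. The intervals of the siEDC4 libraries were 2.17% to 3.41% and 3.03% to 4.51%, and that of the pooled siNC reads 1.29% to 1.95%. They cover counting error only and are not a test. They are too narrow, because edited reads varied beyond sampling noise within both groups (chi-square per degree of freedom 1.54 for siEDC4 and 1.31 for siNC). ATXN2 scored 1.71% and 3.21% against 0.839% and 1.86%, with overlap (log2 ratio 0.90). It was 1.55 without siNC library 2, and it fell short of 1.5-fold without siNC library 1 (0.40) or siEDC4 library 2 (0.37). CAPRIN1 stayed past 1.5-fold whichever library was left out (0.78 to 1.22). Over the 10 genes the median log2 ratio was 0.24 for A-to-I (all genes 0.32) and 0.35 for C-to-U (all genes 0.19).

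**Figure D5:**
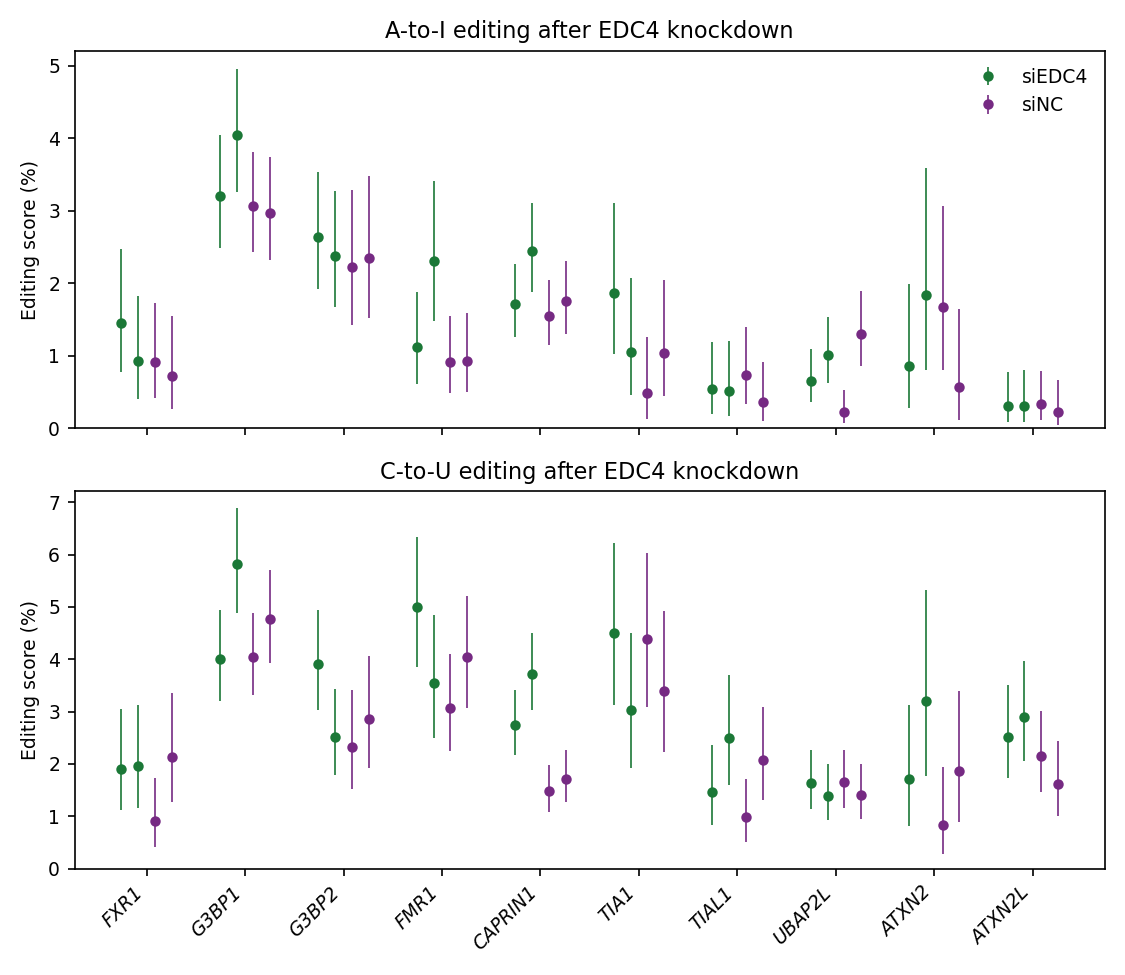
Editing score of the 10 mRNAs in each siEDC4 library (green) and siNC library (purple) for A-to-I (upper panel) and C-to-U (lower panel), with exact 95% binomial intervals that cover counting error only. CAPRIN1 in the lower panel has 2.74% and 3.72% after siEDC4 and 1.48% and 1.72% after siNC, and for most other genes the intervals of both groups overlap.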

How the data were processed

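Per the submitters' processing notes, the tools were FastQC 0.11.9, cutadapt 1.18, STAR 2.7.9a and featureCounts 2.0.1, with hg38. The gene annotation, the handling of strand and of multiple matches and the rule for calling edited sites are not given in the sources used. For the sort the authors deposited whole-number gene counts. Separate deposited tables hold, by editor and contrast, edited reads (counts), reads (entered as estimated counts, whole wherever used) and the editing score per gene as a fraction, printed here as a percentage. Broken lines of ANK2 (3 in each of those tables) were left out. The editing tables list 11969 and 11777 genes (sort, A-to-I and C-to-U) and 10643 and 10833 (knockdown).

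The abundance test was that of edgeR 4.0.16 under R 4.3.3 (quasi-likelihood, TMM, filterByExpr, Benjamini-Hochberg adjustment over all genes, threshold 0.05). Editing used it on edited and unedited reads, for genes edited in 2 or more libraries. The SE is the estimate over the square root of F, so it restates the test. Knockdown values needed a mean of 50 reads, and for editing 10 edited reads. Alternatives used DESeq2 1.42.0, limma 3.58.1 on log2 scores (pseudocount 0.759% or 0.132%), other scalings and filters, a replicate block and leaving out each library. Only the fits of sort abundance and sort A-to-I editing were tried on simulated data. Both groups there were given the same variation, whereas the real sorted libraries varied more than the cytosol libraries. C-to-U editing, centring and the knockdown values were not tried in this way. Coding sequences came from GENCODE v29. All 10 scaffold genes are named, with EDC4, FXR2, USP10 and up to 2 genes per direction with the largest changes of each other list. These genes and lists were chosen with earlier results of these data known. PRRC2B is not analysed here. Labels give the replicate number as a batch. Deviations of same-numbered libraries correlated at 0.056 in the sort and -0.029 in the knockdown.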

Additional observations from a re-analysis of the deposited data

How the results depend on the processing

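DESeq2, library-size scaling, no filter, the length trend, the replicate block and leaving out 1 library each kept the direction of the 8 scaffold mRNAs called in sort abundance. With the GC3 trend removed, chosen after seeing the data, 2 were higher and 6 lower, and G3BP2 (-0.37), CAPRIN1 (-0.022), TIA1 (-0.72) and FMR1 (-0.17) changed sign, the cause of which was not tested. Leaving out 1 library each, 4 to 6 were higher and 3 to 4 lower. With the replicate block no scaffold gene changed its call in the sort. The block gave 71 genes lower in A-to-I score, against 118 without it. Centring gave 1865 genes higher and 1482 lower for A-to-I, and 1480 and 416 for C-to-U. Limma gave 327 and 277 genes lower. Leaving out 1 library, 44 to 98 (A-to-I) and 12 to 21 (C-to-U) genes were lower, from fewer libraries, and 9 to 10 scaffold genes were higher for C-to-U.

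For knockdown reads a lower line of fold change gave 468 genes higher and 192 lower, and leaving out 1 library gave 15 to 48 lower. For A-to-I after knockdown, centring left 1 scaffold gene higher, with 1035 genes higher and 1061 lower. That lower line gave 4 scaffold genes higher and 802 genes lower. Leaving out 1 library gave 629 to 981 genes lower, 2 to 3 scaffold genes higher and 0 to 1 lower. For C-to-U after knockdown, centring gave 1040 genes lower. That lower line gave 4 scaffold genes higher, 2607 genes higher and 1108 lower, and leaving out 1 library gave 2 to 4 scaffold genes higher and 816 to 1325 genes lower. Depth limits the knockdown scores, several of which rest on fewer than 10 edited reads in a library.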

Other observations

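The knockdown control and the sort come from separately made tables, so their editing levels are set side by side here with no test. For C-to-U, the pooled siNC score was above the cytosol mean for all 10 scaffold mRNAs, as it was for 81.4% of 10267 genes with a mean of 50 reads in both groups. Both siNC libraries were above both cytosol libraries for 9 of the 10 and for 65.4% of all genes, FXR1 being the exception. For A-to-I, 9 of 10 scored lower in siNC, as did 88.1% of 10227 genes. TIA1 scored higher, at 0.760% on 12 edited of 1578 siNC reads against 0.165% on 5 of 2979 cytosol reads. Both siNC libraries were below both cytosol libraries for 8 of the 10 and for 73.8% of all genes. They were above for 1 of the 10 and for 4.92% of all genes, and in TIAL1 the groups overlapped. Of the 10, only ATXN2L had a C-to-U score in siNC above its sorted P-body mean as well, and the share of all genes that do so was not counted. It scored 1.89% in siNC on 53 edited of 2797 reads, 0.563% in sorted P-bodies on 16 of 3010 and 0.060% in cytosol on 6 of 10042. UBAP2L scored 1.53% in siNC, 1.86% in sorted P-bodies and 0.096% in cytosol. The library medians moved the same ways, with C-to-U at 1.58% and 1.56% in siNC against 0.546% and 0.522% in cytosol, and A-to-I at 1.02% and 0.993% against 2.74% and 2.63%. Input amount and preparation differed between these groups, and their part in the difference was not tested.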
